A study of Mus musculus with 8 samples.

Results

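The dependence of the dimethyl itaconate (DI) response on NRF2 was read from all 8 libraries of the series, which form a 2 by 2 design of genotype and treatment with 2 libraries in each of 4 groups. The cells were macrophages differentiated from C57BL/6 bone marrow over 7 days in RPMI with M-CSF, a macrophage growth factor. They were wild type or Nrf2-/-, the latter from mice bought from Jackson Laboratory, and were left untreated or exposed to 250 µM DI for 12 h. One label field spells the compound Demethyl Itaconate. The labels do not say whether the wild-type mice were littermates of the knockouts, nor whether replicate libraries stem from different mice or cultures, so the p-values reflect library-to-library spread that may be technical. For each of 11079 genes with enough counts the interaction was computed as the log2 change with DI in knockout cells minus the log2 change with DI in wild-type cells. A negative interaction means that the change was lower without NRF2, and a positive one that it was higher.

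NRF2, encoded by Nfe2l2, is a transcription factor that KEAP1 holds at low levels by directing its ubiquitination. Electrophiles such as itaconate esters modify cysteines of KEAP1, after which NRF2 accumulates, pairs with small MAF proteins and binds antioxidant response elements near genes of glutathione synthesis, thioredoxin recycling, quinone reduction, NADPH supply and iron handling. Damaged proteins and depleted thiols can also engage HSF1, which drives heat shock proteins, and the kinases that phosphorylate eIF2α, which lead to ATF4 and DDIT3. The series title names electrophilic stress and IκBζ, the product of Nfkbiz, so the interaction asks which changes with DI need NRF2.

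Levels are in CPM, read counts scaled to the TMM-adjusted library size. Changes are log2 fold changes from edgeR ± a standard error. That error was computed as the size of the fitted coefficient divided by the square root of its F statistic. A gene was called at an edgeR adjusted p under 0.05. Total counts per library ran from 5554288 to 15680671. The targeted gene, Nfe2l2, read 230.3 and 454 CPM in untreated wild-type cells, 299 and 416 in wild-type DI cells, 40.2 and 53 in untreated knockout cells and 67.7 and 88.0 in knockout DI cells. Both knockout groups lay below both wild-type groups. Whether the counted 3′ tags lie outside the deleted part of Nfe2l2 is not known here, so this checks the labels only weakly. Macrophage markers (10 genes) summed to 4965 to 8460 CPM of the unscaled total in all 8 libraries and neutrophil markers (8 genes) to 236 to 379. Dendritic, lymphocyte, mast cell and erythroid markers stayed at 6.44 CPM or less. Stromal markers summed to 89.0 to 128 CPM in wild-type and 43.5 to 49.2 CPM in knockout libraries, and their part in the results was not tested. In bulk RNA, fewer cells of a type and less RNA per cell cannot be told apart.

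The response to DI differed between genotypes for 836 of 11079 genes, 7.55% of those tested. The interaction was higher for 549 genes (4.96%) and lower for 287 (2.59%), and fits without 1 library gave 137 to 609 and 101 to 324. DI on its own raised 721 genes (6.51%) and lowered 962 (8.68%) in wild-type cells, and raised 497 (4.49%) and lowered 443 (4%) in knockout cells. The counts given for gene lists below are to be read beside these shares of all tested genes. The median interaction over all genes was 0.02 after TMM scaling, and 65.7% of the calls were higher. By fitted values, the change with DI kept its sign and was smaller in knockout cells for 134 of the called genes, kept its sign and was larger for 24, and had the opposite sign for 678. Most of the last kind had a knockout change that did not pass the test. Of the 24 larger ones, the wild-type change passed for 3. Both changes were called, in opposite directions, for 64 genes. These counts lean on the untreated knockout libraries: without replicate 1 of that group 137 interactions were higher, 101 lower and 2 genes were called in opposite directions, and without replicate 2 they were 162, 108 and 0. DI then raised 29 or 37 genes and lowered 75 or 74 in knockout cells. Without untreated wild-type replicate 2 there were 246 higher, 119 lower and 24 opposite calls, without knockout DI replicate 1 there were 308, 143 and 20, and with replicate 1 of the wild-type DI pair left out there were 265, 186 and 20. Without untreated wild-type replicate 1 there were 190 lower and 38 opposite calls. Without knockout DI replicate 1, DI raised 145 and lowered 108 genes in knockout cells. In wild-type cells DI raised 391 genes without untreated wild-type replicate 1, raised 290 and lowered 514 without untreated replicate 2, lowered 506 without DI replicate 1, and raised 471 and lowered 571 without DI replicate 2.

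Read from the wild-type side, the increase differed between genotypes for 213 of the 721 genes that DI raised, and the decrease for 321 of the 962 genes that DI lowered. The 721 raised genes had a median log2 change of 1.16 in wild-type cells and 0.18 in knockout cells, and the 962 lowered genes of -1.28 and -0.24. These genes were chosen by their wild-type change, so the medians are descriptions with no test. DI raised 76 of the 721 genes in knockout cells too and lowered 173 of the 962. On the knockout side, 208 of 497 raised genes and 64 of 443 lowered genes had a called interaction.

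**Figure D1:**
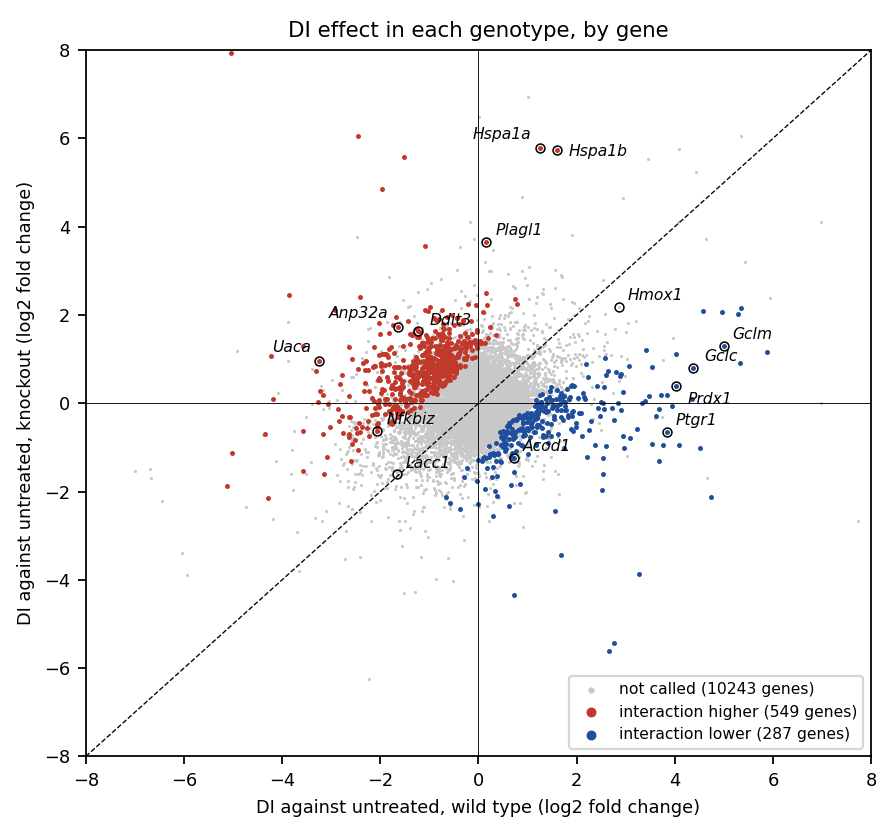
Each point is a gene, with the log2 change with DI in wild-type cells on the x axis and in knockout cells on the y axis, and the dashed line marks equal changes. Blue points (287 genes, interaction lower) lie below the line, with Gclm and Prdx1 far to the right near a knockout change of 1.3 and 0.39, and red points (549 genes, interaction higher) lie above it, with Hspa1a and Hspa1b at the top.

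The increase with DI was smaller without NRF2 for genes of glutathione synthesis, the pathway that joins glutamate, cysteine and glycine into the main cellular thiol. Gclm, which encodes the regulatory subunit of the first enzyme of the pathway, read 129.7 and 134 CPM in untreated and 4140 and 4286 CPM in DI-treated wild-type cells. In knockout cells it read 33.4 and 39.9 CPM untreated and 91.4 and 90.2 CPM with DI. The knockout DI libraries thus lay below the untreated wild-type libraries, although DI still raised Gclm in knockout cells, by 1.3 ± 0.21 against 5.0 ± 0.24 in wild type. The interaction was -3.69 ± 0.30 with edgeR adjusted p = 0.00022. The catalytic subunit gene of that enzyme, Gclc, went from 73.2 and 76.2 to 1220 and 1891 CPM in wild-type cells and from 26.9 and 28.8 to 50.2 and 46.6 CPM in knockout cells, an interaction of -3.58 ± 0.35. Gss, glutathione synthetase, was at 3.32 to 3.85 CPM in all 4 untreated libraries, at 46.8 and 52.7 CPM in wild-type DI cells and at 4.27 and 4.26 CPM in knockout DI cells. The untreated knockout values, 3.85 and 3.69 CPM, lay just above the untreated wild-type values, 3.32 and 3.62 CPM, and the interaction was -3.65 ± 0.37.

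Cystine enters the cell through the exchanger subunit encoded by Slc7a11. This gene went from 4.72 and 3.69 to 131 and 129 CPM in wild-type cells and from 0.35 and 1.3 to 3.95 and 3.85 CPM in knockout cells. DI raised it in both genotypes, by 4.96 ± 0.31 and 2.08 ± 0.43, with an interaction of -2.88 ± 0.57 and edgeR adjusted p = 0.012. The call rests on few counts, 14 over both untreated knockout libraries. Without untreated knockout replicate 2, which leaves replicate 1 at 0.35 CPM, the interaction was -1.52 and the call was lost. Of 11 tested genes of glutathione synthesis and cystine uptake, 6 had a lower interaction and 0 a higher one. The list's median was -2.21, from 3.42 in wild-type cells and 0.80 in knockout cells. Ggt5, which cleaves extracellular glutathione, was 1 of the 6, at -5.51 ± 0.93, with only 8 and 5 counts over the untreated and DI-treated knockout libraries. Without untreated knockout replicate 2, Ggt5 had edgeR adjusted p = 0.0574, and 4 genes of the list were called.

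The promoters of Gclm, of the peroxiredoxin gene Prdx1 and of G6pdx, of NADPH production, are shown because these genes had lower interactions and hold the core of the antioxidant response element, searched as TGACNNNGC on both strands from 250 bases before to 50 after the annotated start. Each printed window is 5′ to 3′ on the gene's strand, taken from RefSeq promoters of GRCm38.p6, with the match in capitals. The Gclm window is chr3:122245398-122245456 on the plus strand, the Prdx1 window chr4:116685441-116685499 on the plus strand and the G6pdx window chrX:74428904-74428962 on the minus strand. Each of these promoters held no match to the other motifs searched.
Gclm: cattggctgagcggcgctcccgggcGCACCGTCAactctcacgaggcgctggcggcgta
Prdx1: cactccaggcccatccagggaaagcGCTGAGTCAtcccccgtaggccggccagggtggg
G6pdx: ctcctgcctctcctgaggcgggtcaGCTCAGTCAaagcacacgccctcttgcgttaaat

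Across all 32851 promoters in that table, 12.4% held the motif TGACNNNGC. Among 8802 tested genes matched by symbol it was 17.0%, among 431 matched genes with a higher interaction 15.8%, among 244 with a lower one 19.7%, and among the 177 of them that DI raised in wild-type cells 21.5%. Among 59 matched genes with both changes called in opposite directions it was 23.7%. A match describes letters in a short window and is not a measured site, and binding was not measured in these libraries.

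Genes of peroxide removal also had lower interactions. Prdx1, a peroxiredoxin that reduces hydrogen peroxide, read 2768 and 2068 CPM in untreated and 40750 and 38280 CPM in DI-treated wild-type cells. In knockout cells it read 1175 and 1249 CPM untreated and 1739 and 1438 CPM with DI. Its interaction was -3.64 ± 0.33 with edgeR adjusted p = 0.000226, and the knockout change of 0.39 ± 0.23 did not pass the test. Catalase, Cat, read 58.8 and 49.95 CPM in untreated and 686 and 639.7 CPM in DI-treated wild-type cells, against 23.6 and 36.8 CPM and 24.1 and 25.2 CPM in knockout cells. The knockout libraries of Cat overlapped whether or not DI was given, and its interaction was -3.91 ± 0.36. Srxn1, which repairs overoxidised peroxiredoxins, had an interaction of -2.72 ± 0.37 and Prdx6 one of -2.54 ± 0.31. Of 16 tested genes of the thioredoxin and peroxiredoxin system, 5 had a lower interaction and 0 a higher one, with a list median of -0.73.

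Enzymes that detoxify electrophiles and quinones gave 11 lower and 0 higher interactions among 25 tested genes, with medians of 1.90 in wild-type cells and -0.20 in knockout cells. Ptgr1, which reduces the double bond of reactive alkenals, read 26.7 and 20.1 CPM in untreated and 403 and 268 CPM in DI-treated wild-type cells. In knockout cells its DI libraries, at 13.7 and 13.1 CPM, lay below the untreated ones, at 22.1 and 19.9 CPM. That knockout difference, -0.65 ± 0.27, did not pass the test (edgeR adjusted p = 0.152), whereas the interaction of -4.49 ± 0.38 did (edgeR adjusted p = 0.00022). Carbonyl reductase Cbr3 had an interaction of -3.99 ± 0.48, the esterase Esd of -2.19 ± 0.31 and the aldehyde reductase Akr1a1 of -2.09.

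NADPH supplies the electrons for these reactions. Among 12 tested NADPH-producing and pentose phosphate pathway genes, 5 had a lower interaction and 0 a higher one. The pentose phosphate pathway genes among them were G6pdx at -2.30 ± 0.32, Pgd at -2.68 ± 0.31 and Taldo1 at -3.04 ± 0.33, joined by the isocitrate dehydrogenase gene Idh1 at -2.0 ± 0.30. Pgd went from 92.7 and 74.7 to 628 and 655 CPM in wild-type cells and from 47.6 and 52.4 to 58.9 and 60.5 CPM in knockout cells. The knockout libraries of Pgd did not overlap between treatments, yet the change of 0.25 ± 0.22 did not pass. In glycolysis and glucose uptake 5 of 21 genes had a lower interaction, including pyruvate kinase Pkm at -1.73 ± 0.30 and Pgam1 at -1.66 ± 0.29, and 0 had a higher one (6 and 0 by DESeq2, 9 and 2 at an unadjusted p under 0.05). That count was 3 without either untreated knockout library and 2 without untreated wild-type replicate 2, and 3 with the A-rich trend described below removed.

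All 13 tested genes of heme and iron handling had an interaction below 0, and 6 of them were called lower. Blvrb, a biliverdin reductase, read 88.9 and 75.9 CPM in untreated and 375 and 434 CPM in DI-treated wild-type cells, and 46.2 and 48.95 CPM and 40.9 and 31.6 CPM in knockout cells, an interaction of -2.69 ± 0.32. The heme transporter gene Slc48a1 was at -2.77 ± 0.34, the metal transporter gene Slc11a1 at -2.10 and the ferritin light chain gene Ftl1 at -1.72 ± 0.31. The called number was 4 without either untreated knockout library, untreated wild-type replicate 2 or knockout DI replicate 1. Counted once each, the 77 genes of the 5 lists from glutathione to heme gave 33 lower and 0 higher interactions by edgeR, against 2.59% and 4.96% of all genes tested. DESeq2 gave 35 and 0, and at an unadjusted p under 0.05 there were 42 and 1.

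Among other genes lower in the interaction by the smallest p were Clec4n, a fungal pattern receptor also called dectin-2, at -3.54 ± 0.35, the glycogen branching enzyme gene Gbe1 at -3.31 ± 0.40, Cyb5a, a cytochrome b5, at -3.79, and Ralgps1 at -2.83. Clec4n read 239 and 236 CPM in wild-type DI cells and 6.82 to 19.8 CPM in the other 6 libraries. The 12 genes with the smallest p in this direction, Gclm, Ptgr1, Prdx1, Cat, Cyb5a, Clec4n, Gclc, Gss, Taldo1, Pgd, Ralgps1 and Gbe1, were called without each of the 8 libraries in turn and with the A-rich trend removed.

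Hmox1, heme oxygenase and a textbook NRF2 target, was raised in both genotypes. It read 41.1 and 29.8 CPM in untreated and 275 and 238 CPM in DI-treated wild-type cells, and 15.4 and 16.4 CPM and 63.5 and 81.9 CPM in knockout cells. The increase was 2.86 ± 0.25 in wild-type and 2.19 ± 0.26 in knockout cells, while the knockout DI level stayed below the wild-type DI level. The interaction was -0.67 ± 0.35 with edgeR adjusted p = 0.24 and a 95% interval of -1.42 to 0.08, so a change of equal size was not separated from one up to 1.42 smaller. Nqo1, the quinone reductase, read 2.45 and 2.26 CPM in untreated and 85.1 and 106 CPM in DI-treated wild-type cells. It had 0 counts in both untreated knockout libraries, which allows up to 3 counts in each, and 1.28 and 0.41 CPM in knockout DI cells (16 counts over the group). No interaction is given for Nqo1 because its fitted knockout change depends on that group without counts. Keap1, with an interaction of -0.72 ± 0.39, and Nfe2l2, with 0.67 ± 0.45, did not pass the test. Of 15 tested regulators and partners of NRF2, the related factor gene Nfe2l1 was called higher, at 1.42, and the ubiquitin ligase gene Trim16 lower, at -3.33. The call of Nfe2l1 was lost without untreated knockout replicate 1 (edgeR adjusted p = 0.0872) or 2 (0.0825). That of Trim16 was lost without untreated knockout replicate 2 (edgeR adjusted p = 0.227), untreated wild-type replicate 2 (0.0592) or knockout DI replicate 1 (0.0573).

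**Figure D2:**
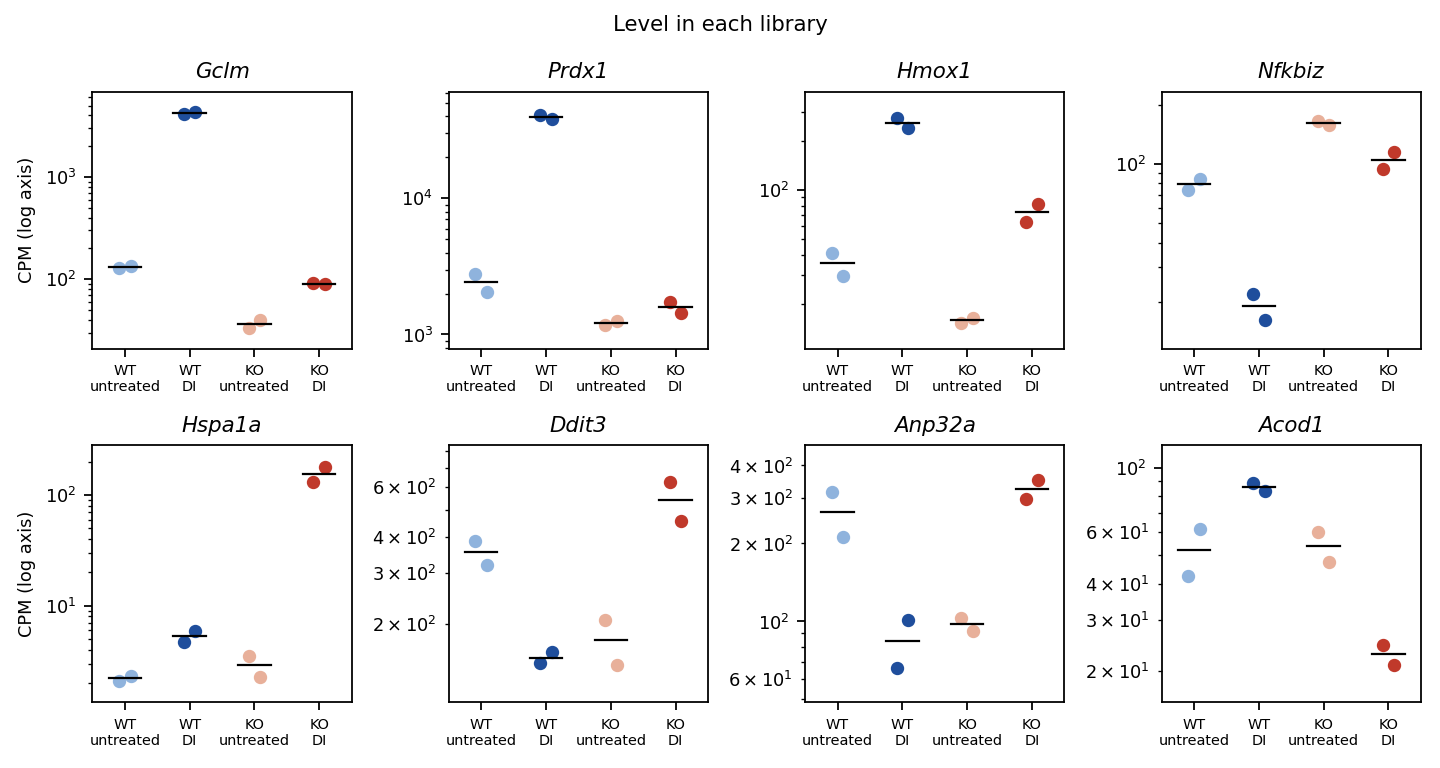
CPM on a log axis in each library of the 4 groups for 8 genes, with a dot per library and a line at the mean of the 2 libraries. Gclm and Prdx1 are high in the wild-type DI libraries alone, Hmox1 is higher with DI in both genotypes, Hspa1a is high in the knockout DI libraries at 132 and 181 CPM, and Ddit3 and Anp32a move in opposite directions in the 2 genotypes.

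Of 22 tested cytosolic heat shock genes, 7 had a higher interaction and 15 were not called. Of the 7, DI changed 3 with the same sign and more in knockout cells, Hspa1a, Hspa1b and Hspa8, and 4 with opposite signs. Hspa1a, an inducible HSP70 chaperone, read 2.10 and 2.33 CPM in untreated and 4.71 and 5.87 CPM in DI-treated wild-type cells, and went from 3.5 and 2.28 to 132 and 181 CPM in knockout cells. DI raised Hspa1a by 1.26 ± 0.31 in wild-type cells and by 5.79 ± 0.32 in knockout cells, an interaction of 4.53 ± 0.44 with edgeR adjusted p = 0.000284. Hspa1b, a nearly identical copy next to it, gave 4.14 ± 0.42, and how reads were divided between both copies is uncertain. Hspa8, the constitutive HSP70, read 1009 and 896 CPM in untreated and 1649 and 1546 CPM in DI-treated wild-type cells, and 889 and 855 CPM and 3422 and 5589 CPM in knockout cells. Both knockout DI libraries of Hspa8 stood above the wild-type DI ones. The wild-type change of Hspa8, 0.75 ± 0.25, did not pass the test. Its interaction was 1.62 ± 0.35 with edgeR adjusted p = 0.0183, and the call was lost without untreated knockout replicate 1 (adjusted p = 0.0862) or 2 (0.0858) or untreated wild-type replicate 1 (0.0504), in a range of 0.0104 to 0.0862 over the 8 fits.

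The HSP40 co-chaperone gene Dnaja1 had opposite signs, with 152 and 343 CPM in untreated and 106 and 157 CPM in DI-treated wild-type cells against 111 and 115 CPM and 532 and 333 CPM in knockout cells. Untreated and treated wild-type libraries of Dnaja1 overlapped. Its interaction of 2.84 ± 0.51 had edgeR adjusted p = 0.0506 without untreated knockout replicate 1. The list gave 7 higher and 0 lower interactions, with 9 and 0 by DESeq2 and 11 and 0 at an unadjusted p under 0.05, and the medians were 0.49 in wild-type cells, 1.15 in knockout cells and 0.97 for the interaction. The count of 7 became 2 and 3 without untreated knockout replicates 1 and 2, and 4 without untreated wild-type replicate 2, without wild-type DI replicate 1 or with the A-rich trend removed.

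The HSP70 promoters are shown with a match to the heat shock element, searched as GAANNTTC on both strands, a motif held by 7.86% of all promoters in the table. Among tested genes matched by symbol it was 7.08%, among those with a higher interaction 7.42% and among those with a lower one 5.33%. The match lies at the same distance from the start in both copies. The Hspa1a window is chr17:34972228-34972285 and the Hspa1b window chr17:34959310-34959367, both on the minus strand of GRCm38.p6 from RefSeq.
Hspa1a: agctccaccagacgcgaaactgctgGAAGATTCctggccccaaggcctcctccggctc
Hspa1b: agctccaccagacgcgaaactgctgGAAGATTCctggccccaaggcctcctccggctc

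Counting Hspa1a, Hspa1b and Hspa8, 24 genes had fitted changes of the same sign that were larger in knockout cells, 16 upward and 8 downward. The wild-type change itself was called for only 3 of the 24, Hspa1a, Hspa1b and Ppp1r15a, so for the others its sign is uncertain. It did not pass for Plagl1 (0.16 ± 0.45), Ms4a4a (-0.02 ± 0.22) or the other genes of this paragraph. Plagl1, a zinc-finger transcription factor gene, stayed at 1.36 to 2.27 CPM in the wild-type libraries and went from 3.15 and 1.19 to 23.6 and 27.8 CPM in knockout cells, an interaction of 3.49 ± 0.61. In the downward direction Ms4a4a, a tetraspanning membrane protein gene, read 39.5 to 46.8 CPM in all wild-type libraries and went from 62.6 and 55.9 to 15.7 and 19.1 CPM in knockout cells, an interaction of -1.74 ± 0.31. H2-Q6, a class I histocompatibility gene of a family whose members can share reads, was at -1.69 ± 0.32. Slc5a3, an inositol transporter gene, at 2.06 ± 0.39, lost its call without untreated knockout replicate 2 (edgeR adjusted p = 0.0512). Noxred1, at 2.33, lost its call without untreated knockout replicate 1 (edgeR adjusted p = 0.0563) or untreated wild-type replicate 2 (0.0557).

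The change with DI reversed for Ddit3, the transcription factor of the integrated stress response also called CHOP. It read 390.2 and 321 CPM in untreated and 146 and 159 CPM in DI-treated wild-type cells, and went from 206 and 143 to 623 and 458 CPM in knockout cells. DI thus lowered Ddit3 by -1.22 ± 0.25 in wild-type cells and raised it by 1.63 ± 0.26 in knockout cells, an interaction of 2.85 ± 0.36 with edgeR adjusted p = 0.00139. The untreated knockout libraries lay below the untreated wild-type libraries and close to the wild-type DI libraries. Nupr1, a stress-induced chromatin protein gene, fell from 69.7 and 63.9 to 22.5 and 16.8 CPM in wild-type cells, while the knockout values were 73.5 and 70.7 CPM untreated and 91.9 and 91.7 CPM with DI. Its knockout difference of 0.35 ± 0.22 did not pass, and its interaction was 2.12 ± 0.31.

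Ppp1r15a, the phosphatase subunit that reverses eIF2α phosphorylation, was raised in both genotypes and more in knockout cells, with an interaction of 1.47 ± 0.33. That call was lost without untreated knockout replicate 1 (edgeR adjusted p = 0.0572) or 2 (0.117), untreated wild-type replicate 2 (0.0798) or wild-type DI replicate 1 (0.0592), and had adjusted p = 0.0779 with the A-rich trend removed. The integrated stress response list as a whole was mixed. Of 28 tested genes 4 had a higher and 2 a lower interaction (4 and 2 by DESeq2, 9 and 3 at an unadjusted p under 0.05). The list median was 0.29. The higher calls numbered 2 without either untreated knockout library, untreated wild-type replicate 2 or wild-type DI replicate 1. The lower calls numbered 0 without untreated knockout replicate 2, 3 without wild-type DI replicate 2, and 1 without each of the other 6 libraries or with the A-rich trend removed. Atf3, induced by many stresses, had 0.03 ± 0.41, with a 95% interval of -0.85 to 0.92. Of 20 aminoacyl-tRNA synthetase genes, many of them ATF4 targets, 5 had a higher interaction and 0 a lower one (6 and 0 by DESeq2, and 6 and 0 at an unadjusted p under 0.05), for example Sars at 2.05 ± 0.39. These calls numbered 1 and 0 without untreated knockout replicates 1 and 2, 2 without untreated wild-type replicate 2 or wild-type DI replicate 1, and 3 without knockout DI replicate 1 or with the A-rich trend removed. Sars had edgeR adjusted p = 0.0583 without untreated knockout replicate 2.

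Slc7a11 belongs to the integrated stress response list and to the glutathione list at once, and Nupr1 moved the other way. Their promoters are shown because both hold matches to the motif TGATGNAA, a core shared by ATF4 and C/EBP sites, found in 3.97% of all promoters in the table. Its share was 2.98% among tested genes matched by symbol, 3.02% with a higher interaction and 4.92% with a lower one. The Nupr1 window is chr7:126625548-126625605 and the Slc7a11 window chr3:50443628-50443704, both on the minus strand of GRCm38.p6 from RefSeq. Slc7a11 holds 2 matches, 1 on each strand.
Nupr1: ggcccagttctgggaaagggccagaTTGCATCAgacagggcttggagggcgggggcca
Slc7a11: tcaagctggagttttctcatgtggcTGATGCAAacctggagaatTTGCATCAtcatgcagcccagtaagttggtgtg

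Of the 64 genes with both changes called in opposite directions, DI lowered 58 in wild-type cells and raised them in knockout cells, and did the reverse for 6. Without untreated knockout replicate 1 or 2, 2 and 0 genes were called in both directions, and with the A-rich trend removed 30 were. Among genes with at most 9 A the count was 13. Anp32a, a histone-binding phosphatase inhibitor gene, read 316 and 211 CPM in untreated and 66.3 and 102 CPM in DI-treated wild-type cells, and went from 103 and 91.7 to 296 and 352 CPM in knockout cells. Sdccag8, a centrosome protein gene, read 79.9 and 76.0 CPM, 16.8 and 19.2 CPM, 37.4 and 47.8 CPM, and 77.5 and 75.5 CPM in the same order. Vti1b, a SNARE gene of vesicle fusion, had an interaction of 3.07 ± 0.36 and Rufy1, an endosomal protein gene, one of 2.90 ± 0.38. For Anp32a and Sdccag8 the knockout DI libraries thus reached the range of the untreated wild-type libraries or came close to it, and the untreated knockout libraries lay below that range. Further genes of this kind were the helicase gene Dhx40 at 2.72, the ubiquitin ligase gene Rnf40 at 2.44 and Ccdc47, of the endoplasmic reticulum, at 2.20. Uaca, whose knockout change of 0.96 ± 0.34 did not pass, had 4.20 ± 0.52.

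Untreated levels differed between genotypes in most of these genes. In 57 of the 58 genes the mean of the untreated knockout libraries was below that of the untreated wild-type libraries, with a median log2 difference of -0.82 (0.5 CPM added), against -0.01 over all genes. The median of knockout DI against untreated wild type was 0.36, and of knockout DI against wild-type DI 1.51. For the 139 genes with a called interaction that DI raised in knockout cells alone the untreated knockout level was lower in 130, with a median of -0.59. For the 210 genes with a lower interaction that DI raised in wild-type cells it was lower in 129, with a median of -0.09. The interaction is computed from the same untreated libraries, so these values describe the called genes and were not tested.

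Inflammatory genes split in both directions. Nfkbiz (chromosome 16, 55811375 to 55838899, minus strand, mm10), which encodes IκBζ, a nuclear cofactor for secondary response genes, read 73.9 and 84.3 CPM in untreated and 21.8 and 16.3 CPM in DI-treated wild-type cells. In knockout cells it read 166 and 158 CPM untreated and 93.8 and 115 CPM with DI. The knockout DI libraries therefore stood above the untreated wild-type ones. DI lowered Nfkbiz by -2.06 ± 0.24 in wild-type cells, the knockout difference of -0.63 ± 0.23 did not pass (edgeR adjusted p = 0.105), and the interaction was 1.43 ± 0.33 with edgeR adjusted p = 0.0233. The call was lost without untreated knockout replicate 1 (edgeR adjusted p = 0.0929) or 2 (0.0992), untreated wild-type replicate 2 (0.0768) or wild-type DI replicate 2 (0.0623). Over the 8 fits the adjusted p ran from 0.0302 to 0.0992 with the direction kept, and it was 0.0144 with the A-rich trend removed.

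Il12b, the p40 subunit of IL-12 and IL-23, read 3.32 and 4.46 CPM in untreated and 0.63 and 1.21 CPM in DI-treated wild-type cells, and 2.45 and 2.06 CPM and 8.97 and 4.26 CPM in knockout cells. The knockout difference of Il12b, 1.56 ± 0.46, did not pass (edgeR adjusted p = 0.0548). DI lowered Il12b in wild-type cells by -2.0 ± 0.51, and its interaction of 3.56 ± 0.69 was called without each library in turn, on 17 to 126 counts per group. Il18 at 1.81 ± 0.35 and the monocyte chemokines Ccl7 at 1.6 ± 0.32 and Ccl12 at 1.41 ± 0.33 were lowered by DI in wild-type cells, by -2.06, -2.04 and -2.46. The knockout change of Ccl12, -1.05, passed the test, and those of Il18 and Ccl7, -0.25 and -0.45, did not. Each of these 3 calls was lost without untreated knockout replicate 1, with edgeR adjusted p = 0.0528, 0.0823 and 0.108. Il18 also lost it without untreated knockout replicate 2 (0.0568). Ccl12 also lost it without untreated knockout replicate 2 (0.0854), untreated wild-type replicates 1 (0.0575) and 2 (0.0516) and wild-type DI replicate 2 (0.0721).

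Other inflammatory genes were raised by DI in wild-type cells with a lower interaction. Ptgs2, cyclooxygenase-2, read 7.43 and 5.63 CPM in untreated and 39.7 and 38.1 CPM in DI-treated wild-type cells, and 5.25 and 6.73 CPM and 12.1 and 12.6 CPM in knockout cells, an interaction of -1.56 ± 0.36. The neutrophil chemokine gene Cxcl3 had -3.28 ± 0.73 on 16 counts over the untreated knockout libraries. Tnfaip3, the NF-κB inhibitor A20, had -2.31 ± 0.48. Without untreated knockout replicate 2 the edgeR adjusted p was 0.137 for Ptgs2, 0.481 for Cxcl3 and 0.0825 for Tnfaip3. Without untreated wild-type replicate 2 the edgeR adjusted p was 0.086, 0.068 and 0.0723, and with replicate 1 of the wild-type DI pair left out it was 0.0543, 0.0512 and 0.0541. Ptgs2 also lost its call without untreated knockout replicate 1 (edgeR adjusted p = 0.0528) or knockout DI replicate 1 (0.0592). Of 29 tested inflammatory and NF-κB feedback genes, 4 had a higher and 4 a lower interaction. These counts were 1 and 1 without untreated knockout replicate 1, 1 and 0 without replicate 2, 2 and 0 without untreated wild-type replicate 2, 3 and 1 without replicate 1 of either DI group, and 4 and 2 without knockout DI replicate 2 or with the A-rich trend removed. They were 2 and 3 when replicate 2 of the wild-type DI pair was left out. Of 18 chemokine genes 2 were higher and 1 lower. The higher count was 0 without untreated knockout replicate 1 and 1 without untreated knockout replicate 2, either untreated wild-type library or wild-type DI replicate 2, and the lower count was 0 without replicate 2 of either untreated group or wild-type DI replicate 1.

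Acod1, the enzyme that makes itaconate itself, read 42.5 and 61.6 CPM in untreated and 89.1 and 83.1 CPM in DI-treated wild-type cells, and 60.02 and 47.4 CPM and 24.7 and 21.0 CPM in knockout cells. The groups did not overlap between treatments in either genotype, and the order of treated and untreated was reversed. DI lowered Acod1 in knockout cells by -1.23 ± 0.25, the wild-type difference of 0.72 ± 0.24 did not pass, and the interaction was -1.96 ± 0.35 with edgeR adjusted p = 0.00713. That call held without each library in turn (0.0111 to 0.0427). Il1b, Tnf and Lcn2 did not pass the test of the interaction, and Il6 had too few counts to be tested.

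DI lowered 19 of 38 tested interferon-stimulated genes in wild-type cells and 16 in knockout cells, with a median of -0.88 in each genotype. Over all tested genes DI lowered 8.68% in wild-type and 4% in knockout cells. The interaction was higher for 2 of the 38, the RNA sensor gene Ifih1 at 2.46 and Xaf1 at 1.56, and lower for 0. The share called higher was near that of all tested genes, 4.96%, with 2.59% called lower there. The list median was -0.03. DESeq2 gave 3 higher and 2 lower, and at an unadjusted p under 0.05 there were 6 and 6. Both Ifih1 and Xaf1 hold 12 A within 15 coding bases, and without untreated knockout replicate 2 neither was called (edgeR adjusted p = 0.0592 and 0.147). Xaf1 also lost its call without untreated knockout replicate 1 (edgeR adjusted p = 0.151), untreated wild-type replicate 2 (0.189), knockout DI replicate 2 (0.115), either wild-type DI library (0.14 and 0.0577) or the A-rich trend (0.171). Among 30 macrophage receptor and identity genes, DI lowered 11 in each genotype, and 1 had a lower interaction, Trem2 at -1.07, whose call was lost in each of the 8 fits without 1 library (edgeR adjusted p = 0.0543 to 0.177). For that list DESeq2 gave 2 higher and 3 lower, an unadjusted p under 0.05 gave 5 and 6, and leaving out replicate 2 of the wild-type DI pair gave 2 and 2. Of 17 class I and class II histocompatibility genes 0 were called by edgeR and 0 by DESeq2, and 3 were lower and 0 higher at an unadjusted p under 0.05. The interaction was below 0 for 14 of the 17, with a median of -0.66, or -0.25 with the A-rich trend removed. Their summed level was 24480 CPM in untreated knockout replicate 2 against 13010 in replicate 1, so that library weighs on the list.

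Among the genes that DI changed in both genotypes in the same direction with an interval of the interaction that stayed closest to 0 were Klhl24, Htatip2, Stard8, Lacc1 and Apobec3. Lacc1, a macrophage metabolic enzyme gene, read 141 and 162 CPM in untreated and 52.9 and 42.9 CPM in DI-treated wild-type cells, and 208 and 221 CPM and 65.8 and 74.5 CPM in knockout cells. Its changes were -1.66 ± 0.22 and -1.61 ± 0.22, and the interaction of 0.05 ± 0.31 had a 95% interval of -0.62 to 0.72. Apobec3, a cytidine deaminase restriction factor gene, had -0.06 with an interval of -0.73 to 0.62. With 2 libraries per group a difference within about these bounds could not be seen even for these genes, so none of them is shown to respond equally.

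**Figure D3:**
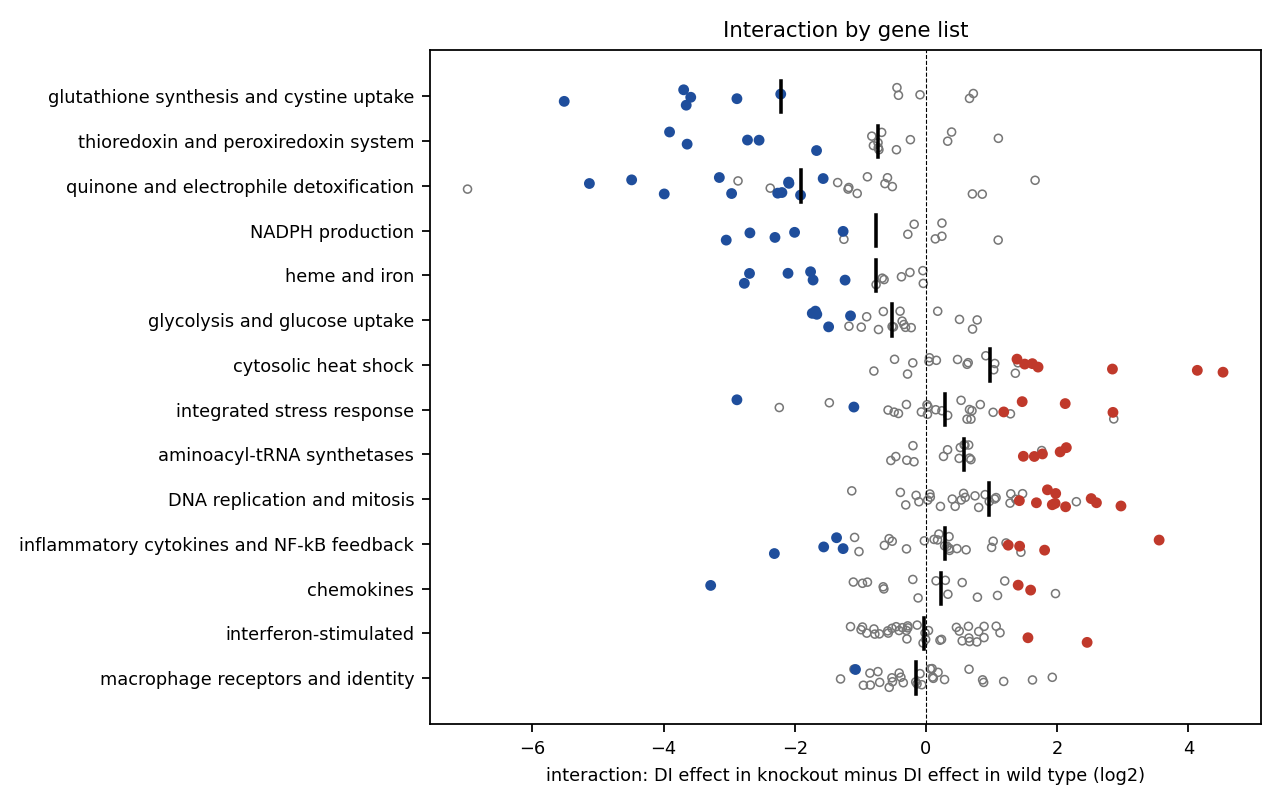
Interaction of each tested gene in 14 lists, in log2 units, with filled dots for called genes (blue lower, red higher), open dots for the rest and a black bar at the list median. The lists from glutathione to heme lie to the left with 0 red dots in 5 lists, the heat shock list lies to the right with 7 red dots, and the interferon list is centred at -0.03.

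Of 35 tested genes of DNA replication and mitosis, 10 had a higher interaction and 0 a lower one (11 and 0 by DESeq2, 15 and 0 at an unadjusted p under 0.05), with medians of -0.93 in wild-type cells, -0.00 in knockout cells and 0.97 for the interaction. Prc1, a spindle midzone protein gene, read 7.69 and 8.99 CPM in untreated and 3.30 and 4.10 CPM in DI-treated wild-type cells, and 4.72 and 4.99 CPM and 11.3 and 13.8 CPM in knockout cells, an interaction of 2.52 ± 0.41. The list had a median of 11 A in its richest 15 coding bases, against 10 over all tested genes. Its count of 10 became 2 and 3 without untreated knockout replicates 1 and 2, 6 and 4 without untreated wild-type replicates 1 and 2, 5 without replicate 1 of either DI group, and 3 with the A-rich trend removed. Not on this list but among the 12 genes higher in the interaction by the smallest p were the mitotic kinesin gene Kif20b at 2.69 ± 0.35, the kinetochore gene Ndc80 at 3.51 ± 0.46 and the replication checkpoint gene Clspn at 3.40 ± 0.43.

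The A content of the genes was examined next. First strands were primed with a run of 15 T, per the labels' protocol, and such a primer can pair with A-rich stretches inside a transcript as well as with the poly(A) tail. The largest number of A in any 15 consecutive coding bases was therefore counted for 10999 tested genes. The windows of 6 genes are shown, 5′ to 3′ on the coding strand of the GENCODE M21 transcripts (mm10) with A in capitals, to set 4 genes with a higher interaction beside 2 with a lower one. Each is within a coding exon: Sdccag8 at chr1:176826229-176826243 (plus), Anp32a at chr9:62372148-62372162 (plus), Vti1b at chr12:79157890-79157904 (minus), Kif20b at chr19:34939833-34939847 (plus), Srxn1 at chr2:152105727-152105741 (plus) and Slc48a1 at chr15:97790590-97790604 (plus).
Sdccag8: AAAcAAAtAAggAAA
Anp32a: cAAcAAAAtAAAAgA
Vti1b: AAAtAcAAAtgAAAA
Kif20b: gAAAAtAAAgAAAAA
Srxn1: AccAAggAAgAggtA
Slc48a1: tcAAAgAcccgAAcA

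The first 3 windows hold 11 A, that of Kif20b 12, and those of Srxn1 and Slc48a1 7. These windows are examples and do not stand for all leading genes. Hspa1a and Hspa1b, the higher genes with the smallest p, hold 8 A. Gclm and Prdx1, both lower, hold 10, the median of all tested genes. Across all genes the median interaction was higher in each class from 7 A upward, going from -0.41 for genes with at most 6 A (108 genes) and -0.42 with 7 A to 0.54 with 12 A and 0.59 with 13 or more (214 genes). The median in wild-type cells went from 0.25 to -0.31 and that in knockout cells from -0.11 to 0.29 over the same classes. Calls followed: 11.7% of genes with 13 or more A had a higher interaction and 0% a lower one, against 0.586% and 5.86% of genes with 7 A. Across 10999 genes Spearman's rho between the interaction and the number of A was 0.36 and Pearson's r 0.30, a description of genes that share 8 libraries.

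Genes with at least 11 A made up 29.8% of all tested genes, 60.0% of those with a higher interaction, 9.09% of those with a lower one and 72.4% of the 58 lowered in wild type and raised in knockout. The share of counts from genes with 13 or more A was 4.53 to 4.84% in the 4 untreated libraries, 3.26 and 3.88% with DI in wild-type cells and 5.15 and 5.28% with DI in knockout cells, so neither treated group overlapped the untreated libraries. With the median of each A class removed per library, 372 genes had a higher and 242 a lower interaction, so 60.6% of calls were higher against 65.7% before. All 58 of those reversed genes kept a called interaction in that fit, while the number with both changes called in opposite directions went from 64 to 30, and 318 of 548 higher and 189 of 286 lower calls with a known A number did so. How much internal priming contributes to any gene was not tested, and positions of the reads were not analysed here.

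**Figure D4:**
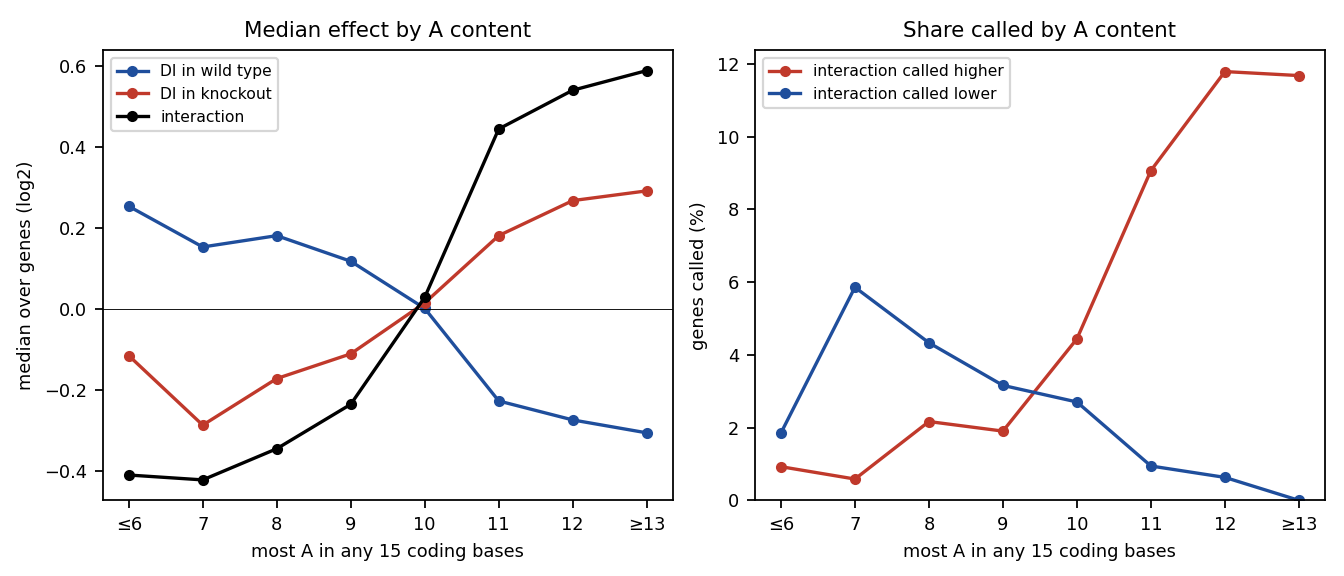
Genes in classes by the largest number of A in any 15 coding bases (x axis). On the left are the median log2 changes with DI in wild-type cells and in knockout cells and the median interaction, which goes from -0.41 to 0.59. On the right is the share of genes in each class whose interaction was called higher (up to 11.8%) or lower (up to 5.86%).

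A smaller set of interaction calls did not hang on any single library. Leaving out each of the 8 in turn left 177 genes called in every fit, 102 higher and 75 lower, and these 177 were also called with the A-rich trend removed. Of the 64 genes with both changes called in opposite directions, 55 were in this set. Membership required only that the interaction stayed called, not that both changes did. The opposite calls themselves leaned on the untreated knockout libraries, as given above. The number called in a single fit was lowest without untreated knockout replicate 1 (137 higher and 101 lower) and replicate 2 (162 and 108), the former being the library with the fewest counts. The antioxidant genes Gclm, Gclc, Gss, Prdx1, Cat, Srxn1, Ptgr1, Pgd, Taldo1 and Blvrb, the chaperones Hspa1a and Hspa1b, the stress regulators Ddit3 and Nupr1, and Acod1 and Il12b were all in the set of 177, and Nfkbiz, Hspa8 and Slc7a11 were not.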

How the data were processed

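Poly(A) RNA of 8 libraries was primed with a barcoded oligo-dT of 15 T, pooled by Actb level and amplified by 12 PCR cycles per the labels' protocols, which describe no molecular identifiers, so reads are not independent molecules. The deposited values are raw read counts per Ensembl gene. Per the submitters' processing notes, STAR, HTSeq, DESeq2 and the mm10 build were used, with no settings listed, and sources used here do not give the counting annotation. Symbols, coordinates and coding sequences came from GENCODE M21, and 343 identifiers without a match (0.0606% of counts) stayed in the fit. Of 22165 genes, 6866 had no count and 11079 passed edgeR's filterByExpr by group (minimum count 10).

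Groups follow the labels' genotype and treatment. All comparisons come from 1 fit of 8 libraries (edgeR 4.0.16 in R 4.3.3, TMM, 1 mean per group, robust quasi-likelihood F-test, 4 residual degrees of freedom), with Benjamini-Hochberg adjustment over all tested genes and no fold threshold. The 95% intervals use the same standard errors. The steps were tested on simulated data. Changed genes were drawn from better expressed genes only, and the spread followed the trend over level, not each gene's own. The A-rich trend of the interaction was not simulated. Recovery and false calls may therefore be worse in the real data, above all for genes with few counts. An interaction was recovered for 6 of 100 genes changed 2-fold and for 86 of 100 changed 4-fold, with 7 false calls among 99. A 2-fold difference was thus mostly missed, and a gene that was not called is not shown to lack one. Libraries of a group correlated at 0.973 to 0.980 across genes and differed by more than counting error (chi-square per degree of freedom 15.2 to 47.6).

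Alternatives were DESeq2 1.42.0, its size factors in edgeR, no filter, each library left out, a replicate block, the A-rich trend removed as an offset per library and class, and genes with at most 9 A. The named genes are called genes with a proper symbol and at least 10 CPM in the highest group: the 12 with the smallest p in each direction, 10 with both changes called oppositely, 8 larger in knockout and 6 alike in both genotypes. Added were 4 per list by p from 33 lists of pathways and cell markers, and 14 genes the series is about. This gave 152 genes, of which the text describes those its gene groups turn on, and 1 is not reported here. Members, lists and rule were chosen with earlier results of these data known.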

Additional observations from a re-analysis of the deposited data

Results flagged for a closer look

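The log2 change with DI differed between genotypes by the edgeR test of the interaction itself. That change, not the level, was higher in knockout than in wild-type cells for 549 genes and lower for 287 genes. Among them 64 genes were called in both genotypes in opposite directions. The values of the genes concerned stand in the report, with the libraries on which single calls rest.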

How the results depend on the processing

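Leaving out each library in turn gave 137 to 609 genes with a higher and 101 to 324 with a lower interaction, 196 to 796 with opposite signs, 35 to 112 smaller and 7 to 48 larger in knockout cells, and 0 to 68 with both changes called in opposite directions. It gave 290 to 745 genes raised and 506 to 1001 lowered in wild-type cells, and 29 to 598 raised and 74 to 491 lowered in knockout cells. Such a fit assumes that the lone library varies like the other groups. Without a filter on low counts there were 1106 higher and 491 lower interactions, 1310 of opposite sign, 76 larger, 211 smaller, 165 called in opposite directions, and 1029 raised and 668 lowered genes in knockout cells. Among genes with at most 9 A, which are 4708, these were 166, 96, 180, 15, 67, 13, 180 and 163, with 329 raised and 412 lowered in wild-type cells. Fewer genes were tested there. DESeq2 gave 774 higher and 426 lower interactions and 42 genes larger in knockout. With the A-rich trend removed, 30 genes were called in opposite directions. The replicate numbers pair no samples by the labels, and deviations of same-numbered libraries correlated at -0.08 to 0.16. The replicate block gave 564 higher and 281 lower interactions. The replicate block with the A-rich trend removed gave 353 higher interactions, 447 of opposite sign and 32 called in opposite directions. The cause was not tested for these shifts.

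The sign of the interaction turned for uncalled genes. With the A-rich trend removed, then with the replicate block added, it was 0.19 and 0.19 for Apobec3, -0.38 and -0.38 for Atf3, 0.24 and 0.23 for Htatip2, -0.069 and -0.086 for Il1b, 0.35 and 0.35 for Klhl24 and -0.37 and -0.37 for Lacc1. Among genes with at most 9 A it was 0.26 for Apobec3, 0.32 for Htatip2 and 0.31 for Klhl24. Without 1 library the ranges were -0.21 to 0.073 for Apobec3, -0.36 to 0.51 for Atf3, -0.17 to 0.15 for Htatip2, -0.26 to 0.77 for Il1b, -0.20 to 0.17 for Klhl24, -0.11 to 0.18 for Lacc1, -0.27 to 0.17 for Stard8 and -0.58 to 0.83 for Tnf. Of 90 named genes that were called, 46 stayed so without each library, 73 with the trend removed, 88 with the block and 90 in DESeq2.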
